A study of Mus musculus with 9 samples.

Results

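The genes described here encode axon guidance ligands and receptors: ephrins and Eph receptors, semaphorins with plexins and neuropilins, Slits with Robos, and netrin-1 with Dcc and the Unc5 receptors. They were chosen as a list of 44 named genes, and every probe set annotated to 1 of them alone was taken from the array table. A probe set is a group of short oligonucleotides that together measure 1 transcript. Of the 44 genes, 43 were measured, by 107 of the 45037 probe sets tested, out of 18193 genes measured in all. Ephb2 was not analysed here.

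RNA was measured in mouse brain hemispheres, freed of the cerebellum, of B6By.C.132.54, BALB/cJ and C57BL/6ByJ mice. B6By.C.132.54 is an inbred strain whose name marks it as carrying BALB/c DNA on a C57BL/6By background; BALB/cJ and C57BL/6ByJ are inbred strains of those lines. All 90 mice (30 per strain) were untreated adult males of 11 ± 1 weeks, so sex, age and lack of treatment were shared by every group. Each of the 9 arrays, 3 per strain, held a pool of 10 hemispheres, so the spread between arrays is that between pools and not between mice, and p-values measure only that spread. Array medians lay between 3.953 and 3.999 on the log2 scale. The third B6By.C.132.54 array had the narrowest interquartile range of the 9 (2.731) and correlated least with the other arrays of its strain (mean r = 0.988).

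Axon guidance molecules steer growing axons by attraction or repulsion at the growth cone. Ephrins are held on the cell surface and bind Eph receptor tyrosine kinases on the neighbouring cell, with signals passing both ways. Semaphorins act through plexins, with neuropilins as co-receptors for the secreted class 3 semaphorins. Slits are secreted and repel axons through Robo receptors, while netrin-1 attracts axons through Dcc and repels them through Unc5 receptors. In the adult brain many of these genes remain expressed and are known for roles in synapses and dendritic spines.

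Few strain differences passed the test, in the RNA of these genes as over all probe sets. The counts below are too small to set these genes apart from all probe sets. In BALB/cJ against C57BL/6ByJ, 0 of the 107 probe sets were called, that is, had a Benjamini-Hochberg adjusted p under 0.05 in limma, and 5 (4.67%) had an unadjusted p under 0.05. Over all probe sets, 644 (1.43%) were called in that comparison and 7.58% had an unadjusted p under 0.05. In B6By.C.132.54 against C57BL/6ByJ, 0 guidance probe sets were called and 2 (1.87%) had an unadjusted p under 0.05, where over all probe sets 0.0% were called and 3.89% had an unadjusted p under 0.05. In B6By.C.132.54 against BALB/cJ, 1 guidance probe set was called, a lower one of Sema6d, and 9 (8.41%) had an unadjusted p under 0.05, against 1.28% called and 7.5% under that unadjusted p over all probe sets. The replicate number, which the arrays of the 3 strains share, was also fitted as a block. With that block 1 guidance probe set was called in BALB/cJ against C57BL/6ByJ (Slit2, lower), 0 in B6By.C.132.54 against C57BL/6ByJ and 2 in B6By.C.132.54 against BALB/cJ (Sema6d and Plxnb1, both lower). The shares called over all probe sets with the block were 2.12%, 0.0% and 1.85% in the same order of comparisons. When each gene was represented by its brightest probe set (highest mean of the 9 arrays), 0 of the 43 genes were called in any of the 3 comparisons, with or without the block. Of all 18193 genes, 1.32%, 0.0% and 1.1% were called in the same order of comparisons. An unadjusted p under 0.05 was found for 0, 1 and 3 of the 43 genes. The share of all genes under that unadjusted p is not given here, and the shares called are not its counterpart.

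The fit also bounded the size of the differences of the brightest probe sets. For the brightest probe sets, the log2 difference ran from -0.23 (Plxna4) to 0.19 (Plxnb1) in BALB/cJ against C57BL/6ByJ. It ran from -0.34 (Epha6) to 0.28 (Sema3f) in B6By.C.132.54 against C57BL/6ByJ, and from -0.29 (Sema6d) to 0.24 (Sema3a) in B6By.C.132.54 against BALB/cJ. The genes at these extremes were picked out by their values. The median standard error (SE) of a log2 difference was 0.11. In the 3 comparisons, the unadjusted 95% interval lay wholly within a 1.5-fold difference in either direction for 42, 40 and 42 of the 43 genes. It lay within 2-fold for all 43 in each. Over all genes, 92.3%, 94.0% and 92.0% had intervals within 1.5-fold. These bounds do not hold for every other probe set of the 43 genes. For Slit2 1458140_at the interval in BALB/cJ against C57BL/6ByJ ran from -1.15 to -0.392, past 2-fold.

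**Figure D1:**
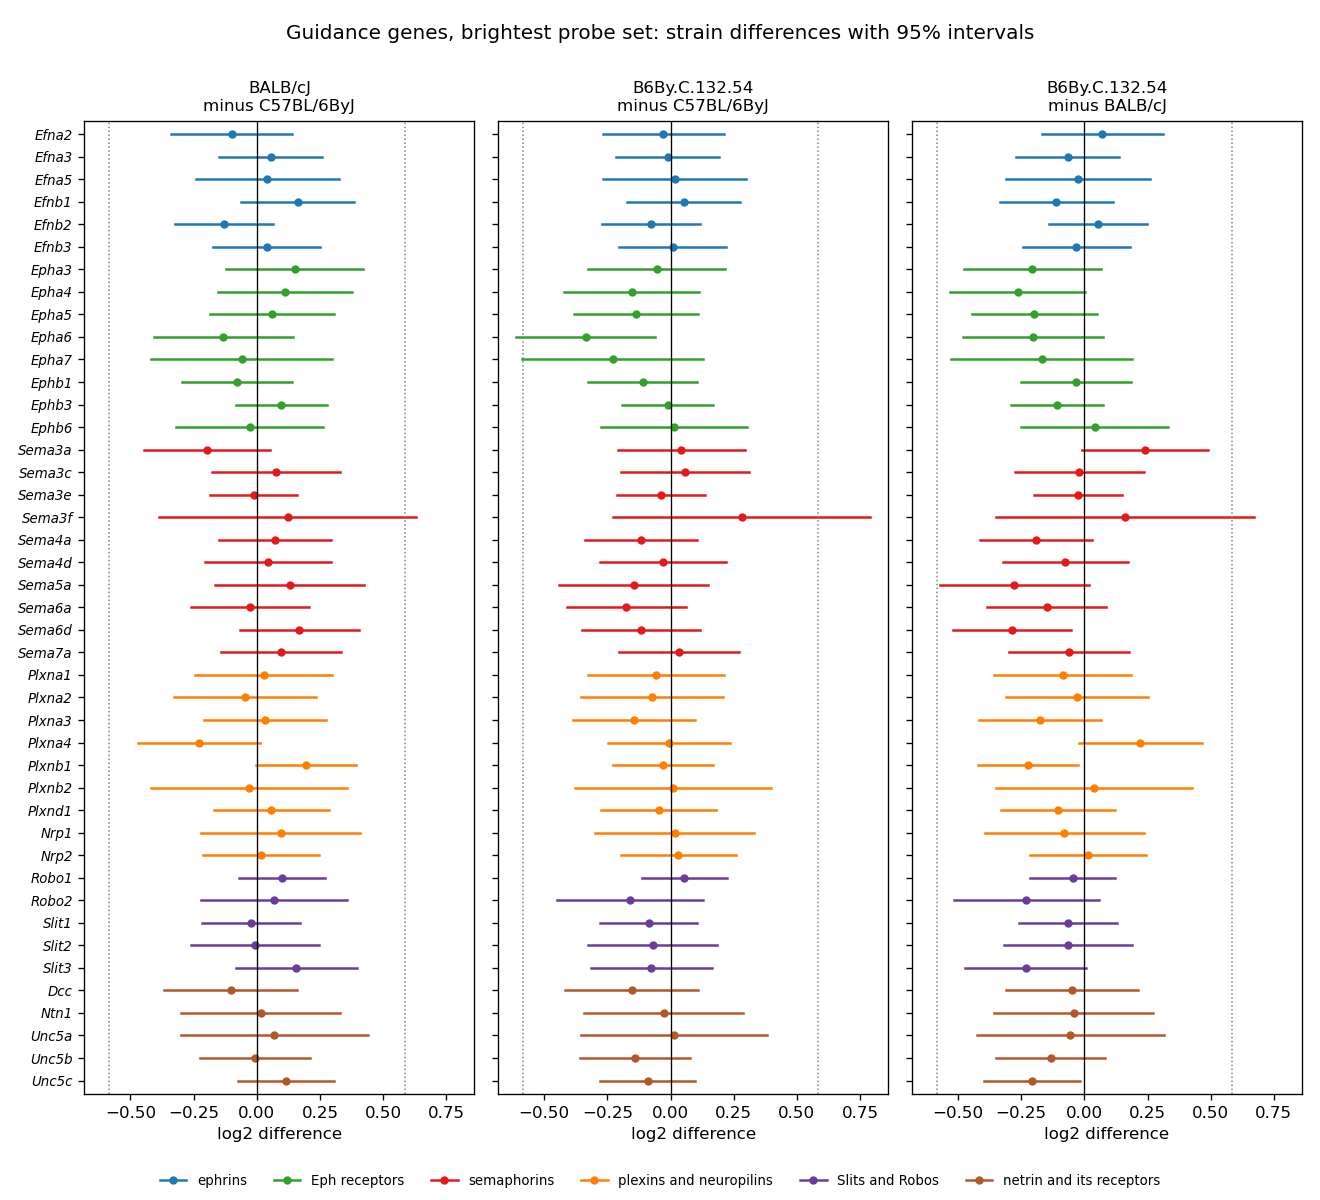
Log2 difference between strains (x axis) for each of the 43 genes (y axis, ordered and coloured by family), by its brightest probe set, with 1 panel per comparison. Points are estimates, horizontal lines are 95% intervals from the fit to 9 arrays, and dotted lines mark a 1.5-fold difference. Estimates lie between -0.34 and 0.28, and the widest intervals belong to Sema3f.

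The sequences upstream of the genes with a called probe set are shown because they are the members on which the counts above turn. Each is a 300-base promoter window around a gene start, from RefSeq on GRCm38.p6, all on the plus strand. CpG dinucleotides are in capitals. Sema6d has 2 annotated starts on chromosome 2, at chr2:124089719-124090018 and chr2:124653331-124653630. The Plxnb1 window is chr9:109095186-109095485 and the Slit2 window is chr5:47982905-47983204.
Sema6d, first start: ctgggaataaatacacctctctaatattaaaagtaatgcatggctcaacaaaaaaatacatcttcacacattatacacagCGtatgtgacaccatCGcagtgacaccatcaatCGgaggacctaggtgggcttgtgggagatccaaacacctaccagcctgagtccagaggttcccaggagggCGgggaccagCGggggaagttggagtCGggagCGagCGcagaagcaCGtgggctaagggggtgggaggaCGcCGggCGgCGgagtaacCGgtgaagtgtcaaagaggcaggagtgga
Sema6d, second start: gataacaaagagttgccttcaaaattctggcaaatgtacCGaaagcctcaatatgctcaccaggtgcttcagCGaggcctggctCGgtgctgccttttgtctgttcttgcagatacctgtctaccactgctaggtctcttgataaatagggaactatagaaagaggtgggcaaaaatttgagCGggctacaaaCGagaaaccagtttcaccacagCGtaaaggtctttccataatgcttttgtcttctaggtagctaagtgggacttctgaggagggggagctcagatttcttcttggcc
Plxnb1: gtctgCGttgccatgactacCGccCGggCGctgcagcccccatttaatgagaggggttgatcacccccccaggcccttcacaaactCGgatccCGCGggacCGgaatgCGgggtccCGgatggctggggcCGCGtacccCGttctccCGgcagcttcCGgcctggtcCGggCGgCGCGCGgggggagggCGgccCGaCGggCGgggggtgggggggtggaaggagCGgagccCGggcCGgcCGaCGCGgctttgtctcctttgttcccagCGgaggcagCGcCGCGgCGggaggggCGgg
Slit2: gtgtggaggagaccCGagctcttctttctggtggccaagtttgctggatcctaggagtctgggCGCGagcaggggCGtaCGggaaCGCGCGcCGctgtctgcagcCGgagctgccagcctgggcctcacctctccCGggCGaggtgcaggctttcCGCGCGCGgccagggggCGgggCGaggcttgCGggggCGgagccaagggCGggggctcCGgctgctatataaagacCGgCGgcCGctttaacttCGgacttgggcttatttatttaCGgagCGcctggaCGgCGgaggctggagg
The windows hold 14, 6, 36 and 30 CpG dinucleotides in that order. The GC box GGGCGG, searched on both strands, matched 5 times in the Plxnb1 window, 3 times in the Slit2 window, 2 times in the first Sema6d window and 0 times in the second. TATAAA, also searched on both strands, matched once in the Slit2 window and in none of the others shown. Across the 36 guidance genes with an entry (47 windows) the median was 22 CpG dinucleotides, with a range of 2 to 42, against 13 in 21262 windows of protein-coding genes. GGGCGG stood in 70.2% of the guidance windows and 46.2% of the protein-coding windows, and TATAAA in 4.26% and 12.6%. These are descriptions of the letters in the windows, and the arrays measured nothing at promoters.

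Among the ephrins, the ligands of Eph receptors, 6 genes were measured by 14 probe sets and 0 were called in any comparison. Efnb3, a transmembrane ephrin, had log2 intensities of 7.31, 7.40 and 7.29 in B6By.C.132.54, 7.21, 7.39 and 7.50 in BALB/cJ, and 7.22, 7.39 and 7.38 in C57BL/6ByJ. The 3 strains overlapped throughout, and the differences were -0.032 ± 0.096 (B6By.C.132.54 minus BALB/cJ), 0.039 ± 0.096 (BALB/cJ minus C57BL/6ByJ) and 0.0076 ± 0.096 (B6By.C.132.54 minus C57BL/6ByJ; SE).

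Efnb1, an X-linked transmembrane ephrin, was read by 3 probe sets that did not share a direction. The brightest, 1418286_a_at, gave 5.23, 5.23 and 5.14 in B6By.C.132.54, 5.27, 5.19 and 5.47 in BALB/cJ and 5.20, 5.25 and 4.99 in C57BL/6ByJ, with overlapping strains. A dimmer one, 1418285_at, gave 3.58, 3.64 and 3.60 in B6By.C.132.54, 3.11, 3.55 and 3.36 in BALB/cJ and 3.58, 3.80 and 3.91 in C57BL/6ByJ. For 1418285_at every BALB/cJ array lay below every C57BL/6ByJ array, by -0.42 ± 0.12 (SE) on average, which did not pass the test (adjusted p = 0.218, and 0.0592 with the replicate block). The brightest probe set differed the other way, by 0.16 ± 0.10, and the third, 1451591_a_at, by -0.021 ± 0.082. The mean of 1418285_at falls short of the median over all probe sets (3.968), at the dim end of the scale where signal over background is least.

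Efnb2, the arterial ephrin of the vasculature, was singled out after its values were seen, because 1 of its 4 probe sets (1449548_at) had an unadjusted p under 0.05 in both comparisons of B6By.C.132.54. That probe set gave 4.58, 4.94 and 4.53 in B6By.C.132.54, 4.93, 5.17 and 4.94 in BALB/cJ and 4.96, 5.01 and 5.06 in C57BL/6ByJ. The B6By.C.132.54 arrays were lower than every C57BL/6ByJ array and overlapped BALB/cJ by 1 array. Neither difference passed the test, at -0.33 ± 0.12 against C57BL/6ByJ (adjusted p = 0.915) and -0.34 ± 0.12 against BALB/cJ (adjusted p = 0.422). The brightest Efnb2 probe set, 1419639_at, did not show it, at -0.077 ± 0.088 against C57BL/6ByJ and 0.053 ± 0.088 against BALB/cJ. Probe sets 1419638_at and 1449549_at differed by -0.123 and -0.081 against C57BL/6ByJ and by -0.129 and -0.099 against BALB/cJ. The GPI-anchored ephrins Efna2, Efna3 and Efna5 had brightest-probe-set differences between -0.10 and 0.071 over the 3 comparisons.

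The 8 Eph receptors measured were read by 21 probe sets, of which 0 were called in any comparison and 8 were dimmer than the median probe set (3.968). In the fit to all 9 arrays this family had the lowest median of the 6 in both comparisons of B6By.C.132.54. The median log2 difference of the 8 brightest probe sets was -0.18 against BALB/cJ and -0.12 against C57BL/6ByJ, with 1 of 8 higher in each. Over all genes the medians were -0.025 and -0.016. Quantile normalization gave the Eph receptors -0.13 and -0.065, and leaving out replicate 1, 2 or 3 of B6By.C.132.54 gave -0.20, -0.23 and -0.087 against BALB/cJ and -0.14, -0.185 and -0.031 against C57BL/6ByJ. The receptors share the same arrays, and no test was made of the family as a whole.

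Epha4, a receptor for both ephrin classes that is known in the adult hippocampus, was read by 5 probe sets. The brightest, 1421928_at, gave 8.16, 8.39 and 8.07 in B6By.C.132.54, 8.45, 8.35 and 8.61 in BALB/cJ, and 8.38, 8.18 and 8.53 in C57BL/6ByJ. B6By.C.132.54 overlapped both other strains by its second array. All 5 probe sets were lower in B6By.C.132.54 than in the other two strains, by -0.15 to -0.37 against BALB/cJ and by -0.15 to -0.29 against C57BL/6ByJ. No such difference passed the test, and the brightest probe set differed from BALB/cJ by -0.26 ± 0.12 (SE, adjusted p = 0.671).

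Epha3, a receptor for ephrin-A ligands, had its brightest probe set (1425574_at) at 3.90, 3.83 and 3.81 in B6By.C.132.54, 4.35, 3.90 and 3.90 in BALB/cJ and 3.89, 4.02 and 3.80 in C57BL/6ByJ. The first BALB/cJ array stood alone above the other 8. BALB/cJ minus C57BL/6ByJ was 0.15 ± 0.12 (SE, adjusted p = 0.918). The brightest probe sets of Epha3 and Epha6 were dimmer than the median probe set, as was that of Robo2 among the Slit receptors.

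By brightest probe set, Epha6 was the Eph receptor with the lowest difference between B6By.C.132.54 and C57BL/6ByJ, a choice made after its values were seen. Its probe set gave 3.65, 3.82 and 3.41 in B6By.C.132.54, 3.81, 3.85 and 3.82 in BALB/cJ, and 3.87, 4.20 and 3.82 in C57BL/6ByJ. The difference of B6By.C.132.54 from C57BL/6ByJ was -0.34 ± 0.12 (SE, adjusted p = 0.915), with the second C57BL/6ByJ array the highest and the third B6By.C.132.54 array the lowest of the 9. For Epha7, another receptor for ephrin-A ligands, a probe set other than the brightest (1452380_at) lay lower still, at -0.39 ± 0.19 (adjusted p = 0.915, and 0.658 with the block).

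The semaphorins held the single call made without the block. Of 10 genes and 30 probe sets, 1 probe set was called, in B6By.C.132.54 against BALB/cJ. Sema6d is a transmembrane semaphorin that binds plexin-A receptors. Its probe set 1448060_at had log2 intensities of 5.11, 5.28 and 5.01 in B6By.C.132.54, 5.62, 5.55 and 5.59 in BALB/cJ, and 5.31 on all 3 C57BL/6ByJ arrays. Every B6By.C.132.54 array lay below every BALB/cJ array and below the C57BL/6ByJ value. B6By.C.132.54 averaged 5.13 ± 0.14, BALB/cJ averaged 5.59 ± 0.035 (SD, n = 3 arrays each), and the C57BL/6ByJ value is repeated exactly in the deposited table.

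By 1448060_at, Sema6d in B6By.C.132.54 fell by 0.456 on the log2 scale against BALB/cJ (SE 0.087), which is 1.37-fold, with an adjusted p of 0.0283 in limma (0.0252 with the replicate block). BALB/cJ was higher than C57BL/6ByJ by 0.28 ± 0.087 and B6By.C.132.54 differed from C57BL/6ByJ by -0.18 ± 0.087, neither of which passed (adjusted p = 0.296 and 0.915). The call was lost under 10 of the 16 alternatives, with adjusted p from 0.053 to 0.117 where it was lost and from 0.0157 to 0.117 over all settings, while the difference stayed between -0.53 and -0.33. It was lost when any of the C57BL/6ByJ arrays (adjusted p 0.0543, 0.0597 and 0.055), any of the BALB/cJ arrays (0.117, 0.0937 and 0.108) or replicate 1 or 3 of B6By.C.132.54 (0.105 and 0.0777) was left out. The equal C57BL/6ByJ values enter the estimate of the spread. Such repeats on all 3 arrays of a strain were found in 6 of the 107 guidance probe sets (5.61%) and in 2.84% of all probe sets.

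The other probe sets of Sema6d did not all move with it. The brightest, 1453055_at, gave 8.10, 8.09 and 7.73 in B6By.C.132.54, 8.28, 8.33 and 8.18 in BALB/cJ, and 8.12, 8.10 and 8.05 in C57BL/6ByJ. There too every B6By.C.132.54 array lay below every BALB/cJ array, at a difference of -0.29 ± 0.11 that did not pass (adjusted p = 0.485). Probe set 1459318_at gave 3.68, 3.68 and 3.83 in B6By.C.132.54, 3.34, 3.71 and 3.28 in BALB/cJ, and 3.60, 3.40 and 3.82 in C57BL/6ByJ, with the opposite sign between B6By.C.132.54 and BALB/cJ (0.285 ± 0.13). Probe set 1446536_at was level, at 0.0014 ± 0.11. These last 2 are dim, under the median intensity of the arrays.

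**Figure D2:**
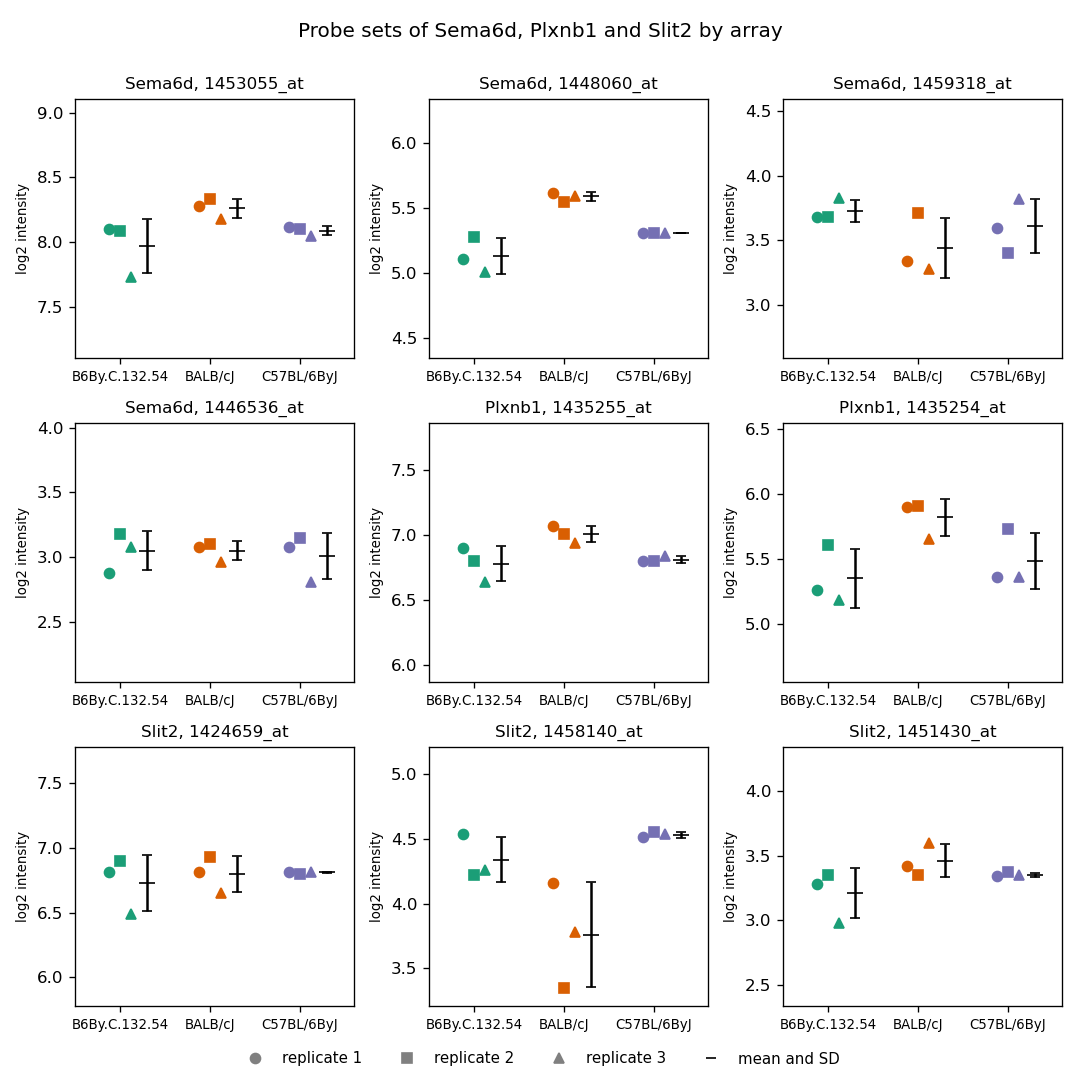
Log2 intensity (y axis) on each array of B6By.C.132.54, BALB/cJ and C57BL/6ByJ (x axis) for all 9 probe sets of Sema6d, Plxnb1 and Slit2. Symbols mark the replicate number and black bars the mean and SD of 3 arrays; each panel has its own axis, with the same span. Sema6d 1448060_at is lowest in B6By.C.132.54 and highest in BALB/cJ, Plxnb1 is highest in BALB/cJ on both probe sets, and Slit2 1458140_at is lowest in BALB/cJ while the other 2 Slit2 probe sets are not.

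Sema3a, the secreted repellent that acts through neuropilin-1, had 6.34, 6.16 and 6.28 in B6By.C.132.54, 6.03, 5.87 and 6.15 in BALB/cJ and 6.43, 6.15 and 6.07 in C57BL/6ByJ by its brightest probe set (1420416_at). Every B6By.C.132.54 array lay above every BALB/cJ array, and C57BL/6ByJ overlapped both. The difference was 0.24 ± 0.11 in B6By.C.132.54 against BALB/cJ (adjusted p = 0.697) and -0.20 ± 0.11 in BALB/cJ against C57BL/6ByJ (adjusted p = 0.808). Its 2 other probe sets lay near the low end of the scale, between 2.33 and 3.66 on every array.

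Sema3f, a secreted semaphorin that acts through neuropilin-2, was decided by 1 array. Its brightest probe set (1438947_x_at) gave 9.18, 9.25 and 10.20 in B6By.C.132.54, 9.29, 9.39 and 9.45 in BALB/cJ, and 9.12, 9.09 and 9.56 in C57BL/6ByJ. The third B6By.C.132.54 array stood above all others, and the first and second lay below every BALB/cJ array. The difference of B6By.C.132.54 was 0.28 ± 0.23 from C57BL/6ByJ and 0.16 ± 0.23 from BALB/cJ. Without the third B6By.C.132.54 array these turned to -0.040 and -0.16. The suffix of this probe set marks probes that may also match other transcripts. A second probe set, 1425840_a_at, was also highest on the third array of B6By.C.132.54 (4.21, 4.29 and 4.89), while the third, 1420508_at, was not (4.81, 4.38 and 4.65). For 1438947_x_at and 1425840_a_at the third array was the highest in BALB/cJ and in C57BL/6ByJ as well. The replicate number held 58.8% of the variance of 1438947_x_at, a share that was not tested.

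The remaining semaphorins were Sema3c and Sema3e (secreted), Sema4a, Sema4d, Sema5a and Sema6a (transmembrane) and Sema7a (GPI-anchored). Their brightest probe sets differed between strains by -0.28 to 0.13 over the 3 comparisons, with Sema5a lowest and highest, and 0 were called.

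Of the semaphorin receptors, 7 plexins and 2 neuropilins were measured by 22 probe sets. Without the block 0 were called in any comparison. Plxnb1 is the receptor for Sema4d. Its probe set 1435254_at gave 5.26, 5.61 and 5.18 in B6By.C.132.54, 5.90, 5.91 and 5.65 in BALB/cJ, and 5.36, 5.73 and 5.36 in C57BL/6ByJ. In each strain the second array was the highest, and within every replicate number the order was BALB/cJ above C57BL/6ByJ above B6By.C.132.54. B6By.C.132.54 minus BALB/cJ was -0.47 ± 0.14 (SE), 1.39-fold, with an adjusted p of 0.252 and of 0.0278 with the replicate block. That was the only 1 of the 17 settings with a call.

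The brightest Plxnb1 probe set, 1435255_at, gave 6.90, 6.80 and 6.64 in B6By.C.132.54, 7.07, 7.01 and 6.94 in BALB/cJ, and 6.80, 6.80 and 6.84 in C57BL/6ByJ. BALB/cJ was again the highest strain on every array. The difference was -0.22 ± 0.089 in B6By.C.132.54 against BALB/cJ (adjusted p = 0.549) and 0.19 ± 0.089 in BALB/cJ against C57BL/6ByJ (adjusted p = 0.668), so neither passed.

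Plxna2, a receptor of class 3 and class 6 semaphorins, was level by its brightest probe set (1453286_at), with 8.32, 8.69 and 8.57 in B6By.C.132.54, 8.36, 8.55 and 8.76 in BALB/cJ and 8.54, 8.53 and 8.73 in C57BL/6ByJ. The 3 strains overlapped, with differences between -0.075 and -0.028. A dim probe set of the same gene, 1429772_at, gave 3.86, 3.84 and 3.79 in B6By.C.132.54, 3.87, 3.87 and 3.51 in BALB/cJ and 3.98, 4.12 and 4.03 in C57BL/6ByJ. There C57BL/6ByJ lay above every other array, and BALB/cJ minus C57BL/6ByJ was -0.29 ± 0.11 (adjusted p = 0.440). Over the other plexins and the 2 neuropilins, the brightest-probe-set differences ran from -0.23 to 0.22, with Plxna4 at both ends.

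In the Slit and Robo family, 5 genes were measured by 10 probe sets, and 0 were called without the block. Slit2 is a secreted repellent for commissural and other axons. Its probe set 1458140_at gave 4.54, 4.22 and 4.26 in B6By.C.132.54, 4.16, 3.35 and 3.78 in BALB/cJ, and 4.51, 4.55 and 4.54 in C57BL/6ByJ. Every BALB/cJ array lay below every array of both other strains, and the BALB/cJ arrays were also the most scattered (SD 0.40).

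BALB/cJ minus C57BL/6ByJ for Slit2 1458140_at was -0.77 ± 0.17 (SE), 1.7-fold, the largest difference of any guidance probe set in the 3 comparisons. It missed the threshold with an adjusted p of 0.0607 and passed it with the replicate block (0.0139), with dim probe sets left out (0.0448) and with an intensity trend and robust prior (0.0498). It also passed without the first BALB/cJ array, at -0.97 and an adjusted p of 0.0095. Without the second BALB/cJ array it was -0.56 (adjusted p = 0.157), and with 16 added before log2 it was -0.395 (adjusted p = 0.126). Over all settings adjusted p ran from 0.0095 to 0.227, and the call was made under 4 of 17. B6By.C.132.54 minus BALB/cJ was 0.58 ± 0.17 (adjusted p = 0.249, and 0.0723 with the block), which passed under 1 of 17 settings, without the first BALB/cJ array (0.77, adjusted p = 0.0358). That difference was 0.37 without the second BALB/cJ array and 0.286 with 16 added before log2.

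The other 2 probe sets of Slit2 did not show it. The brightest, 1424659_at, gave 6.81, 6.90 and 6.49 in B6By.C.132.54, 6.81, 6.93 and 6.65 in BALB/cJ and 6.81, 6.80 and 6.81 in C57BL/6ByJ. The strains overlapped, and BALB/cJ minus C57BL/6ByJ was -0.0076 ± 0.11. For 1451430_at the same difference was 0.10 ± 0.11. Which transcripts the 3 probe sets read was not examined.

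Slit3, another secreted Slit, was read by 1 probe set (1452296_at), which gave 4.93, 5.12 and 4.95 in B6By.C.132.54, 5.12, 5.46 and 5.12 in BALB/cJ and 5.02, 5.06 and 5.15 in C57BL/6ByJ. The second BALB/cJ array was the highest and the strains met or overlapped. B6By.C.132.54 minus BALB/cJ was -0.23 ± 0.11 (adjusted p = 0.686). Slit1 and the receptors Robo1 and Robo2 differed by -0.23 to 0.10 in brightest probe sets, and 0 were called.

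For netrin-1 and its receptors, 5 genes and 10 probe sets gave 0 calls in any comparison, with or without the block. Unc5c, a netrin receptor for repulsion, had 6.46, 6.56 and 6.57 in B6By.C.132.54, 6.78, 6.62 and 6.81 in BALB/cJ and 6.57, 6.68 and 6.62 in C57BL/6ByJ by its brightest probe set (1449522_at). Every B6By.C.132.54 array lay below every BALB/cJ array, at -0.21 ± 0.086 (SE), which did not pass (adjusted p = 0.591). Its other probe set, 1419592_at, had the opposite sign, at 0.14 ± 0.13. Ntn1 itself differed by -0.043 to 0.016, and Dcc, Unc5a and Unc5b by -0.15 to 0.069.

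**Figure D3:**
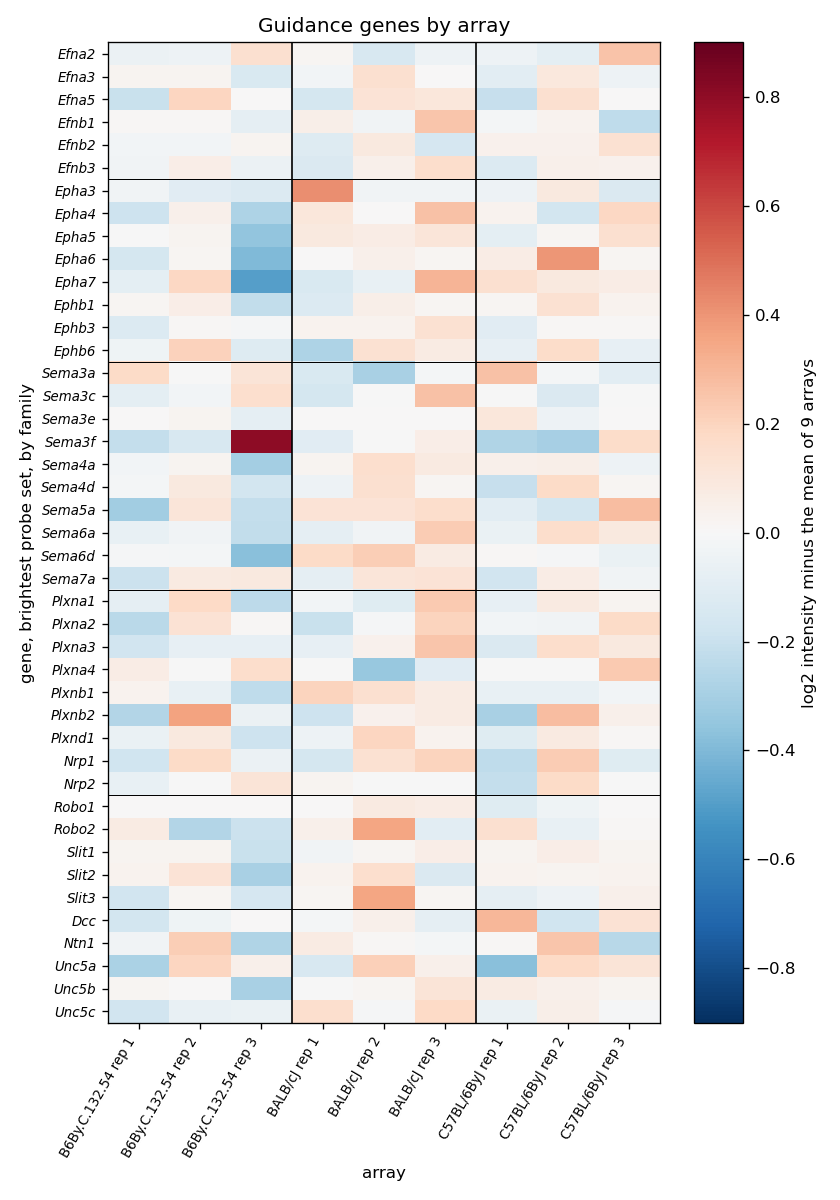
Log2 intensity minus the mean of the 9 arrays (colour) for the brightest probe set of each of the 43 genes (rows, by family) on each array (columns, by strain). Red is above and blue below the mean of the gene. Sema3f on the third B6By.C.132.54 array is the darkest red cell, and that array also holds the darkest blue cells among the Eph receptors.

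The variance of these genes over the arrays was divided between strain and replicate number. With so few arrays, each of them takes up a share even where it has no effect. The share to be found without an effect was not computed. The percentages below therefore do not by themselves show an effect of strain or of replicate number. For the brightest probe sets of the 43 genes, the strain held a median of 21.0% of the variance over the 9 arrays and the replicate number 33.1%, against 24.0% and 31.6% over all genes. The replicate number held more than the strain in 21 of the 43 genes (48.8%), against 56.8% of all genes. At one end, named after their values were seen, Efna5 and Unc5a had 94.2% and 91.2% of their variance with the replicate number and 1.41% and 2.12% with the strain. At the other end, Plxnb1 had 66.5% with the strain and Unc5c 64.6%.

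In sign alone, 8 of the 43 genes were higher in B6By.C.132.54 than in BALB/cJ (18.6%), against 41.8% of all genes and 36.3% of genes at or above the median of all probe sets. In B6By.C.132.54 against C57BL/6ByJ it was 13 (30.2%), against 44.9% and 32.7%, and in BALB/cJ against C57BL/6ByJ 27 (62.8%), against 55.4% and 48.7%. The median differences of the 43 genes were -0.066, -0.048 and 0.042 in these comparisons. These counts depend on the scaling and on single arrays. After quantile normalization they were 15 (34.9%), 24 (55.8%) and 30 (69.8%), in the same order of comparisons. The shares then were 50.2%, 54.2% and 54.6% of all genes, and 48.6%, 53.3% and 55.0% of genes at or above the median. The median of the 43 genes in B6By.C.132.54 against C57BL/6ByJ turned to 0.0047. Leaving out replicate 1, 2 or 3 of B6By.C.132.54 gave 14, 7 and 13 genes higher in B6By.C.132.54 than in BALB/cJ (32.6%, 16.3% and 30.2%). The shares were then 43.2%, 41.4% and 43.6% of all genes, and 39.4%, 31.8% and 45.0% of genes at or above the median. Against C57BL/6ByJ, 16, 7 and 16 were higher (37.2%, 16.3% and 37.2%). There the shares were 47.9%, 42.6% and 47.3% of all genes, and 39.0%, 27.2% and 41.6% of genes at or above the median.

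Different probe sets of 1 gene often disagreed in sign. Of the 33 genes with several probe sets, all signs were the same for 11 in BALB/cJ against C57BL/6ByJ, and for 15 in each comparison of B6By.C.132.54. The same count over all genes is not given here, so these counts do not set the guidance genes apart. In all, 3 of the 107 probe sets were called under any of the 17 settings, 1 each of Sema6d, Plxnb1 and Slit2, and in each of these genes it was not the brightest probe set. The other 104 probe sets and 40 genes were called under none of them. How many of all probe sets were called under any setting is not given here. These counts therefore do not set the guidance genes apart either.

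Other genes of the pathway were counted by brightest probe set, for which 1.32%, 0.0% and 1.1% of all genes were called. Of 32 other guidance ligands and receptors, such as the remaining ephrins, Eph receptors and semaphorins, 0 were called in any comparison, with or without the block, and 3, 2 and 1 had an unadjusted p under 0.05 in BALB/cJ against C57BL/6ByJ, B6By.C.132.54 against C57BL/6ByJ and B6By.C.132.54 against BALB/cJ. Of 45 genes for intracellular partners, such as adaptor proteins and collapsin response mediators, 41 were measured and 0 were called, with unadjusted counts of 2, 0 and 0 in the same order. With so few of all genes called, counts of 0 in lists of this size set neither list apart. For the unadjusted counts, no share over all genes is given here. The median differences of the intracellular partners lay between -0.055 and 0.015. Those of the 32 other ligands and receptors were 0.070, 0.052 and -0.033 in the same order of comparisons.

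Markers of brain cell types were examined because a bulk sample cannot tell fewer cells of a type from less RNA per cell. All 10 neuronal markers, all 10 astrocyte markers and the 9 oligodendrocyte markers measured lay above the median of all probe sets. No neuronal or oligodendrocyte marker was called without the block (unadjusted 0 to 1 of 10 and 1 to 2 of 9), and with it Mal, a myelin gene, was called lower in BALB/cJ against C57BL/6ByJ. Gfap, the astrocyte filament, was called higher in BALB/cJ than in C57BL/6ByJ (0.92) and lower in B6By.C.132.54 than in BALB/cJ (-0.71), 1 of 10 astrocyte markers. Its 2 other probe sets were called in the same directions. The median difference of the 10 astrocyte markers was -0.042 and -0.065 in these comparisons, so Gfap did not stand for its list in either. An unadjusted p under 0.05 was found for 3 of the 10 in each. The complement genes C1qb and C1qc, 2 of 10 microglial markers, were called lower in BALB/cJ than in C57BL/6ByJ (-0.745 and -0.747) and higher in B6By.C.132.54 than in BALB/cJ (0.88 and 0.83). No other probe set of C1qb was called in either comparison. With the block a further microglial marker, Tyrobp, was called higher in B6By.C.132.54 than in BALB/cJ (0.55, adjusted p = 0.0366). Of 9 vascular markers, Cldn5 was called lower in BALB/cJ against C57BL/6ByJ (-0.54) and Rgs5 lower in B6By.C.132.54 against BALB/cJ (-0.56). The mean log2 level of the 10 microglial markers ranged from 6.26 to 6.43 in B6By.C.132.54, 6.02 to 6.25 in BALB/cJ and 6.28 to 6.42 in C57BL/6ByJ. That of the astrocyte list ranged from 8.24 to 8.49, 8.47 to 8.53 and 8.44 to 8.52 in the same order of strains, and that of the vascular list from 5.97 to 6.16, 6.00 to 6.15 and 6.11 to 6.22. Markers of oligodendrocyte precursors, choroid plexus, meninges and cerebellum gave 0 calls in any comparison (unadjusted 0 or 1 in each list), and 4 of the 8 cerebellar markers were dimmer than the median probe set. No marker was at 0. The part of these markers in the differences of Sema6d, Plxnb1 and Slit2 was not tested.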

How the data were processed

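Brain hemisphere RNA was hybridised to Affymetrix Mouse430_2 arrays. The deposited table holds 1 linear intensity per probe set and array; GCOS and RMA are named in the submitters' processing notes without version or order, so background treatment and scale of normalization are not given in the sources used here. Each array was labelled from 7 µg of total RNA, per the labels' protocols, and the number of arrays limits the precision. Log2 was taken of the deposited intensities with no pseudocount and no further normalization. Of 45101 probe sets, 64 controls were left out. Symbols were updated through RefSeq (GRCm38.p6), used only for names, chromosomes and promoter windows, since the array table names no build; probe sets with several genes (932) or none (9160) were left unnamed.

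The strains were compared in a single linear fit of the 9 arrays, with a mean for each strain, using limma 3.58.1 in R 4.3.3 (lmFit and eBayes; 6 residual and 4.823 prior degrees of freedom). Tests were moderated and two-sided, with Benjamini-Hochberg adjustment over 45037 probe sets and a threshold of 0.05. The model was also run on simulated data, with independent noise on each array and changes placed only in probe sets at or above the median. That run cannot speak for an effect shared by same-numbered arrays or for changes in dim probe sets. The design text gives 3 batches holding every strain, but no label ties a replicate number to a batch. Same-numbered arrays deviated together from their strain means in every pair (r 0.147 to 0.542, and -0.458 to 0.153 between different numbers). The correlations were 0.519 to 0.542 for replicate 1 and only 0.147 to 0.266 for replicates 2 and 3, which overlaps the range between different numbers. The numbers were taken to pair the samples and a replicate block was fitted too. That pairing was read from these same data.

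The genes and lists were chosen with earlier results of these data known. Values by array are given for every gene with a probe set called with or without the block, and in each family for the gene with the highest mean and the one with the lowest p between BALB/cJ and C57BL/6ByJ by brightest probe set; genes outside this rule are said to be so. The alternatives were the block, quantile or median scaling, 16 added before log2, dim probe sets left out, an intensity trend with robust prior, only the compared strains, each array left out in turn, and the median of a gene's probe sets.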

Additional observations from a re-analysis of the deposited data

How the results depend on the processing

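Having only 3 pooled arrays per strain limits every result, and dim probe sets carry little signal over background. The cause of each change below was not tested, except that fewer arrays leave fewer degrees of freedom. With the replicate block, which pairs same-numbered arrays, the guidance probe sets called were 1 in BALB/cJ against C57BL/6ByJ (0 without it) and 2 in B6By.C.132.54 against BALB/cJ (1 without it), and it changed no other call of the named genes. In BALB/cJ against C57BL/6ByJ the count was also 1 with dim probe sets left out and with the trend and robust prior. In B6By.C.132.54 against BALB/cJ it was 0 with the trend and robust prior and 0 with only the arrays of the compared strains. Leaving out 1 array at a time gave 0 to 1 in both comparisons, and 410 to 706 calls over all probe sets in BALB/cJ against C57BL/6ByJ (644 with all arrays). The median of each gene's probe sets called 0 guidance genes.

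Directions turned only for log2 differences that had not passed the test. Under quantile normalization these became 0.045 for Plxnb1 1435255_at, 0.0014 for Slit2 1424659_at and 0.0047 for Plxna2 1453286_at in B6By.C.132.54 against C57BL/6ByJ, 0.011 for Efnb3 and 0.014 for Plxna2 in B6By.C.132.54 against BALB/cJ, and 0.014 for Slit2 1424659_at in BALB/cJ against C57BL/6ByJ. Leaving out 1 array at a time gave, in B6By.C.132.54 against C57BL/6ByJ, ranges of -0.027 to 0.10 (Efnb1 1418286_a_at), -0.047 to 0.038 (Efnb3), -0.11 to 0.0033 (Epha3 1425574_at), -0.16 to 0.031 (Plxna2), -0.090 to 0.042 (Plxnb1 1435255_at), -0.028 to 0.15 (Sema3a 1420416_at), -0.040 to 0.46 (Sema3f), -0.18 to 0.0017 (Sema6d 1453055_at) and -0.16 to 0.050 (Slit2 1424659_at). In B6By.C.132.54 against BALB/cJ the ranges were -0.11 to 0.035 (Efnb3), -0.13 to 0.077 (Plxna2), -0.16 to 0.34 (Sema3f) and -0.15 to 0.057 (Slit2 1424659_at). In BALB/cJ against C57BL/6ByJ they were -0.027 to 0.12 (Efnb3), -0.15 to 0.052 (Plxna2) and -0.074 to 0.065 (Slit2 1424659_at). Of the recomputed log2 differences of the named genes, 674 kept their direction and their side of the threshold, 10 lost a call (Sema6d), 6 gained one (Plxnb1 and Slit2) and 27 turned.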
